A study of Mus musculus with 7 samples.

Results

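The ganglioside synthesis glycosyltransferases are the enzymes that build gangliosides, the sialic acid-bearing glycolipids of nerve cell membranes, and 9 of their genes were followed here in the optic nerve of mice lacking fatty acid synthase in oligodendrocytes (OLs). The genes were taken by name (Ugcg, B4galt6, St3gal5, St8sia1, St8sia3, St8sia5, B4galnt1, B3galt4 and St3gal2), and all 9 were found once among the 22880 genes of the deposited table. Optic nerves were collected at postnatal day 14 from 4 control mice (Fasn lox/lox, without Cre) and 3 mutant mice (olig2cre Fasn lox/lox), on a C57Bl/6 background, and both nerves of 1 mouse made 1 sample. Both groups carry the floxed allele, and only the mutants carry Cre, which is driven by the Olig2 promoter, so the presence of Cre and the loss of Fasn cannot be told apart. Cells of the nerve outside the Olig2 lineage keep Fasn, and each value is a mean over all cells of the tissue. Values are FPKM, which are fragments scaled by transcript length and library size.

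Gangliosides start from ceramide, a lipid with a fatty acid tail. Ugcg adds glucose, B4galt6 and its relative B4galt5 add galactose to give lactosylceramide, and St3gal5 adds the first sialic acid to give GM3, the parent of the main brain gangliosides. From GM3 the path divides, since St8sia1 adds a further sialic acid (GD3, the b-series) whereas B4galnt1 adds N-acetylgalactosamine (GM2, the a-series). B3galt4 and St3gal2 then lengthen both series to GM1, GD1a, GD1b and GT1b, and the ends GD1a and GT1b are ligands on axons for myelin-associated glycoprotein. Which cells of the nerve gave the RNA of B4galnt1, B3galt4 and St3gal2 was not tested. Their values therefore do not describe the gangliosides of axons. Ceramide is also the substrate of Ugt8a, which opens the route to the galactolipids of myelin.

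Among the 9 genes, St8sia3 was lower in the mutant nerves and no other passed the test. The mutants held 73.3% of the control level of St8sia3 and 82.2% to 132% of that of the other 8 genes. Genotypes were compared by limma-trend, on a log2(FPKM + 0.5) scale, over the 13866 genes with at least 0.5 FPKM in at least 3 samples, adjusted by Benjamini-Hochberg with a threshold of 0.05, and all 9 genes passed the filter. With 1 called gene of 9, the share in all genes tested was 2.62% in either direction and 1.36% in the lower direction. In 2 of the 9 genes, St8sia3 and St3gal5, control and mutant samples did not overlap, which held for 21.1% of all genes tested (8.26% with the mutants below, as in St8sia3, and 12.9% with the mutants above, as in St3gal5). Fold changes below, with their standard error (SE), are differences of log2(FPKM + 0.5), mutant minus control, over which all genes tested had a median of 0.05.

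As a check of the labels, the controls, numbered 1 to 4, had 210, 169, 211 and 228 FPKM of Fasn. The mutants, numbered 1 to 3, had 69.3, 50.5 and 49.0 FPKM. Every mutant sample was far below every control sample (log2 fold change -1.86, SE 0.138, limma-trend adjusted p = 0.00312). The libraries held 27452222 to 43462575 reads, as estimated from the steps between low values. Between 24890 and 36640 FPKM in each sample came from 6 markers of myelinating OLs, 2559 to 4072 FPKM from 6 astrocyte markers and 49.0 to 88.9 FPKM from 7 neuron markers.

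The levels of the 9 genes spanned a wide range and kept nearly the same order in both genotypes. In the control nerves St8sia3 was the most abundant, with a median of 32.1 FPKM, followed by St3gal2 (median 12.4 FPKM) and St3gal5 (10.4 to 11.4 FPKM), whose sample values overlapped. Ugcg and B4galt6 came next, with medians of 6.64 and 6.30 FPKM and overlapping values. B4galnt1 (median 3.68 FPKM) and B3galt4 (median 3.02 FPKM) overlapped as well, and St8sia1 (median 1.39 FPKM) and St8sia5 (median 0.866 FPKM) were the lowest pair. Between these pairs the control samples did not overlap. In the mutant nerves the order was the same down to B3galt4, and St8sia5 and St8sia1 changed places within their overlap. The reads behind a value ranged from 40 for St8sia5 to 4043 for St8sia3, so the low genes carry more counting error.

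**Figure D1:**
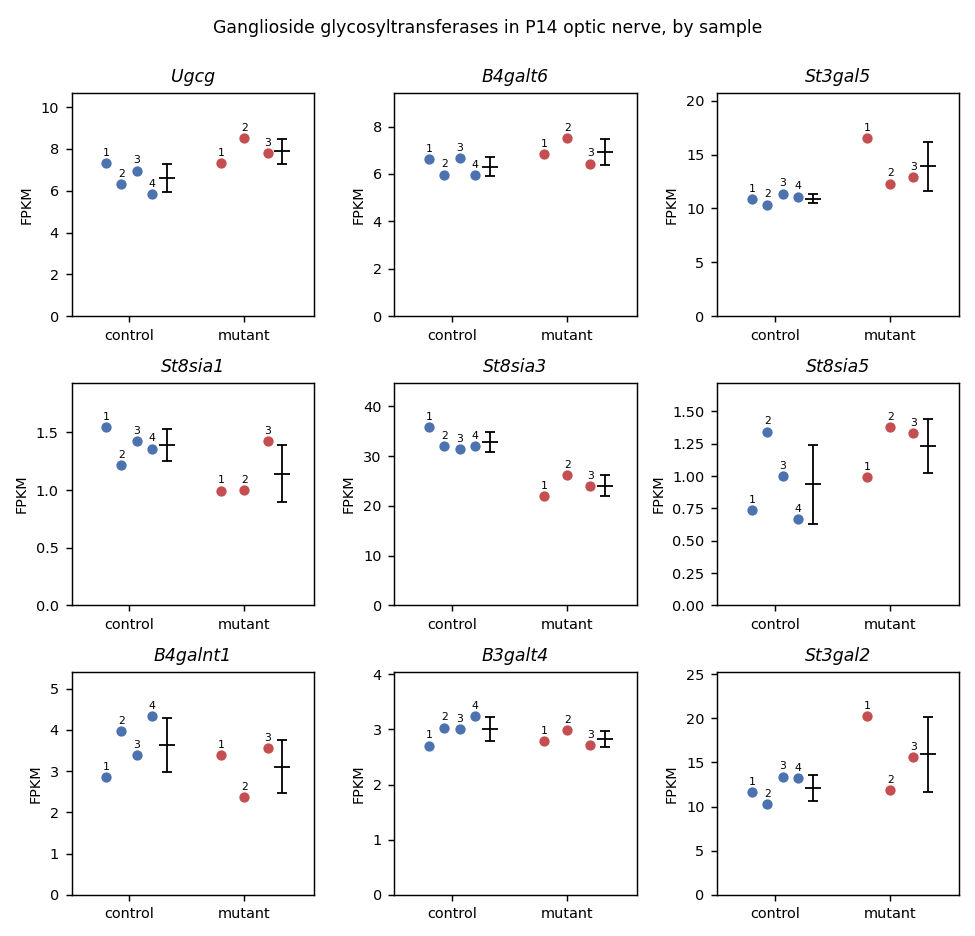
FPKM of each gene (vertical axes, starting at 0) in the 4 control samples (blue) and 3 mutant samples (red), numbered as in the labels, with the mean and SD as black bars. St8sia3 and St3gal5 are the genes whose groups do not overlap, with St8sia3 at 31.4 to 35.9 FPKM in control and 22.1 to 26.1 FPKM in mutant samples.

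St8sia3 encodes an alpha-2,8-sialyltransferase that adds sialic acid to sialylated glycolipids and glycoproteins. Its position in GRCm38 is chromosome 18, 64254359 to 64276146, plus strand (ENSMUSG00000056812), and the antisense transcript St8sia3os of the GENCODE annotation overlaps it. Control samples 1 to 4 had 35.9, 32.1, 31.4 and 32.1 FPKM of St8sia3, and mutant samples 1 to 3 had 22.1, 26.1 and 24.1 FPKM. No mutant value reached the lowest control value, control sample 1 stood above the other controls, and mutant sample 2 was the closest to them. The means were 32.8 ± 2.03 FPKM (SD, n = 4 mice) and 24.1 ± 2.05 FPKM (SD, n = 3 mice), a log2 fold change of -0.44 (SE 0.0775, 95% interval -0.62 to -0.27, limma-trend adjusted p = 0.0320). With the sample number as a block the adjusted p was 0.0369, but the unadjusted p rose from 0.00031 to 0.00208 (limma-trend). The block also raised the calls over all genes from 363 to 1159. The size of the fall was stable when 1 sample was left out (-0.50 to -0.38), but the call was lost in 6 of these 7 fits, with adjusted p from 0.0576 to 0.0972 in limma-trend, and it remained without mutant sample 2 (adjusted p = 0.0267).

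Most of the listed markers of the OL lineage were lower in the mutants, as St8sia3 was. Genes of the myelin galactolipids, which are outside the marker lists, were divided. Ugt8a was higher (log2 fold change 0.29, limma-trend adjusted p = 0.152) and Gal3st1 lower (log2 fold change -0.59, limma-trend adjusted p = 0.0148). The summed FPKM of 6 markers of myelinating OLs was 34420 to 36640 in control and 24890 to 32870 in mutant samples. All 6 were lower, 2 of them past the threshold, with a median log2 fold change of -0.37. For 5 markers of newly formed OLs the sums were 768 to 851 FPKM and 562 to 703 FPKM, with 4 genes lower, none past the threshold and a median of -0.35. For 6 OPC markers they were 388 to 434 FPKM and 282 to 338 FPKM, with 5 genes lower, 3 past the threshold (Gpr17, Cspg4 and Neu4) and a median of -0.37. Gpr17, which is also high in cells starting to differentiate, made up 53.1% to 63.5% of these sums. Without it they nearly met, at 158.6 to 176.7 FPKM in control and 131.0 to 158.3 FPKM in mutant samples. They still include Neu4, at 21.5 to 31.1 FPKM in control and 13.4 to 16.4 FPKM in mutant samples. Pdgfra, a growth factor receptor used here as an OPC marker, had a log2 fold change of -0.14 (limma-trend adjusted p = 0.537) and Ptprz1 one of 0.08 (limma-trend adjusted p = 0.736). In the controls Pdgfra ranged from 38.1 FPKM (sample 2) to 58.1 FPKM (sample 1). The sum of fibroblast markers, given below, had the same lowest and highest control samples. Whether cells other than OPCs add to Pdgfra or Ptprz1 was not tested. Among the mutants, sample 2 had the highest sum of the myelinating and newly formed OL markers, as for St8sia3, whereas sample 3 had the highest sum of the OPC markers. No marker of these lists was at 0 in any sample. Their part in the fall of St8sia3 was not tested, and in whole nerves fewer cells of a type and less RNA per cell cannot be told apart.

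The genes closest to St8sia3 in their pattern were sought by the root mean square difference over the 7 samples in log2(FPKM + 0.5) relative to the control mean. They were Lrrn1 (0.0419), a leucine-rich repeat membrane protein gene, Prom1 (0.0444), which encodes prominin, and 4933413G19Rik (0.0537). Lrrn1 had 101.5, 96.6, 95.5 and 93.5 FPKM in control samples 1 to 4 and 65.9, 79.8 and 68.2 FPKM in mutant samples 1 to 3. These genes were picked for their likeness over the same samples, so a shared order of samples is no separate result. Lrrn1 passed the threshold (limma-trend adjusted p = 0.0274), whereas Prom1 (0.0534) and 4933413G19Rik (0.0628) did not.

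The other alpha-2,8-sialyltransferases of gangliosides were expressed at low levels. St8sia1, the GD3 synthase (chromosome 6 from 142821545 to 142964452, minus strand, ENSMUSG00000030283), had 1.55, 1.22, 1.43 and 1.36 FPKM in control samples 1 to 4 and 0.996, 0.997 and 1.43 FPKM in mutant samples 1 to 3. Mutant samples 1 and 2 were below all controls, whereas mutant sample 3 lay among them. The log2 fold change was -0.21 (SE 0.137, 95% interval -0.52 to 0.10, limma-trend adjusted p = 0.372). St8sia5, which acts late on the complex gangliosides (chromosome 18 from 77185853 to 77255450, plus strand, ENSMUSG00000025425), had 0.735, 1.34, 0.997 and 0.667 FPKM in control and 0.993, 1.38 and 1.33 FPKM in mutant samples. The groups overlapped and the controls differed by more than the means did (log2 fold change 0.29, SE 0.183, limma-trend adjusted p = 0.360).

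The St8sia family has 3 further genes, which act mainly on glycoproteins. St8sia2, which builds polysialic acid on the neural cell adhesion molecule, had 1.28, 1.24, 1.26 and 1.301 FPKM in control and 2.42, 1.71 and 1.96 FPKM in mutant samples. All mutant samples were above all controls, yet the gene did not pass the threshold (log2 fold change 0.51, SE 0.125, limma-trend adjusted p = 0.0660). St8sia4, the other polysialyltransferase, had 1.71 ± 0.216 FPKM (SD, n = 4) in control and 2.27 ± 0.201 FPKM (SD, n = 3) in mutant nerves (limma-trend adjusted p = 0.148), and St8sia6 was below the filter. In a summary chosen after the values had been seen, St8sia3 made up 84.6% to 86.5% of the summed FPKM of the 6 genes in control samples and 76.3% to 80.0% in mutant samples. The sum itself was 36.7 to 41.4 FPKM in control and 28.8 to 32.7 FPKM in mutant samples. Since St8sia3 makes up most of this sum, the lower sum and share are no result separate from the fall of St8sia3.

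**Figure D2:**
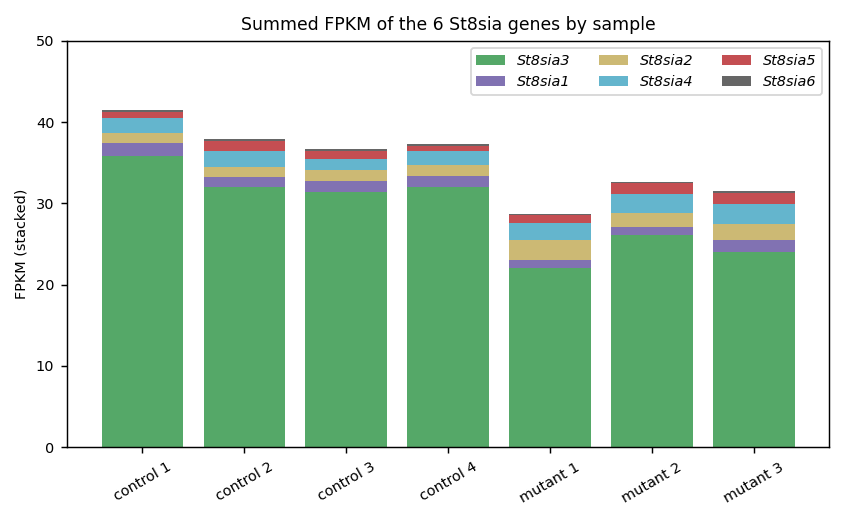
Stacked FPKM (vertical axis) of the 6 St8sia genes in each of the 7 samples. St8sia3 (green) accounts for most of each bar, and the 3 mutant bars, at 28.8 to 32.7 FPKM, are below the 4 control bars, at 36.7 to 41.4 FPKM. The lower mutant bars are no result separate from the fall of St8sia3.

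The enzymes that lead from ceramide to GM3 were slightly higher on average in the mutant nerves, without a call. Ugcg, glucosylceramide synthase (chromosome 4 from 59189257 to 59222833, plus strand, ENSMUSG00000028381), had 7.33, 6.31, 6.96 and 5.84 FPKM in control and 7.31, 8.53 and 7.81 FPKM in mutant samples. Mutant sample 1 lay just within the control range and the other two above it (log2 fold change 0.24, SE 0.0999, 95% interval 0.01 to 0.47, limma-trend adjusted p = 0.183). B4galt6, a lactosylceramide synthase (chromosome 18 from 20684599 to 20746404, minus strand, ENSMUSG00000056124), had 6.63, 5.97, 6.66 and 5.94 FPKM in control and 6.83, 7.52 and 6.44 FPKM in mutant samples. Its groups overlapped (log2 fold change 0.13, SE 0.0894, 95% interval -0.08 to 0.33, limma-trend adjusted p = 0.410).

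St3gal5, the GM3 synthase (chromosome 6 from 72097592 to 72154571, plus strand, ENSMUSG00000056091), had 10.9, 10.4, 11.4 and 11.1 FPKM in control samples 1 to 4. The mutant samples 1 to 3 had 16.6, 12.3 and 12.9 FPKM. Every mutant sample was above every control sample, and mutant sample 1 stood apart. The means were 10.9 ± 0.436 FPKM (SD, n = 4) and 13.9 ± 2.30 FPKM (SD, n = 3), and the log2 fold change of 0.32 (SE 0.104, 95% interval 0.09 to 0.56) did not pass (limma-trend adjusted p = 0.112). Without mutant sample 1 it was 0.20. On the other strand GENCODE places 4933431G14Rik over the gene, and Gm26816 over St3gal2, Gm7457 over St8sia1 and Gm7276 and Gm15957 over St8sia5. Whether the counting used the strand is not given in the sources used here.

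The windows around the start sites of St3gal5 and St8sia1, from 250 bases before to 50 after, are shown because the first enzyme makes GM3 and the second opens the b-series from it. A RefSeq window (GRCm38.p6) was at hand for 4 of the 9 genes. Capitals mark the GC box (GGGCGG) and the CCAAT box (CCAAT), on either strand and without overlap.
St3gal5 (chr6:72097358-72097657, plus strand): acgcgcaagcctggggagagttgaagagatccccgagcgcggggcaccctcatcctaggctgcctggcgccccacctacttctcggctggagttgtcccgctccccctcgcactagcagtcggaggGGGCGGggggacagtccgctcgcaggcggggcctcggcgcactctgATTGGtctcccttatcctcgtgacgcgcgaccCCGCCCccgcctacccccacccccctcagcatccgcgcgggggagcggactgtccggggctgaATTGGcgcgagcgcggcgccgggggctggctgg
St8sia1 (chr6:142964403-142964702, minus strand): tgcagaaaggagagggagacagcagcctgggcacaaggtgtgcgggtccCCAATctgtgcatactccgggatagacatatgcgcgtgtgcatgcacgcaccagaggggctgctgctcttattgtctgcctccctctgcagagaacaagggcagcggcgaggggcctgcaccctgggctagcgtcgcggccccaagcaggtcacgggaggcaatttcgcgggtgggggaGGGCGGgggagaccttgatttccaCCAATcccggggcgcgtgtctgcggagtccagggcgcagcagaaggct
The St3gal5 window held 2 GC boxes and 2 CCAAT boxes, and that of St8sia1 held 1 GC box and 2 CCAAT boxes. The GC box was in 35.7% and the CCAAT box in 37.4% of 32851 windows of this length. The letters TCACNCCAC of the sterol regulatory element, found in 1.24% of the windows, were in neither. The GC content was 72.7% for St3gal5 and 64.7% for St8sia1.

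The enzymes that extend the ganglioside chain had no shared direction. B4galnt1, the GM2 and GD2 synthase (chromosome 10 from 127165156 to 127172340, plus strand, ENSMUSG00000006731), had 2.85, 3.96, 3.40 and 4.32 FPKM in control and 3.39, 2.37 and 3.55 FPKM in mutant samples. The groups overlapped, and mutant sample 2 was the only one below all controls (log2 fold change -0.20, SE 0.165, 95% interval -0.58 to 0.17, limma-trend adjusted p = 0.485). Without that sample the log2 fold change was -0.05. It overlaps Slc26a10 on the other strand in GENCODE. B3galt4, which makes GM1 and GD1b (chromosome 17 from 33949909 to 33951477, minus strand, ENSMUSG00000067370), had 2.71, 3.04, 3.01 and 3.24 FPKM in control and 2.78, 2.99 and 2.72 FPKM in mutant samples. All its mutant values lay within the control range (log2 fold change -0.07, SE 0.0989, 95% interval -0.29 to 0.16, limma-trend adjusted p = 0.706).

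St3gal2, which adds the terminal sialic acid of GD1a and GT1b (chromosome 8 from 110919922 to 110972480, plus strand, ENSMUSG00000031749), had 11.6, 10.2, 13.4 and 13.2 FPKM in control and 20.2, 11.8 and 15.6 FPKM in mutant samples. Mutant sample 1 was the highest and mutant sample 2 lay within the control range (log2 fold change 0.35, SE 0.167, 95% interval -0.02 to 0.73, limma-trend adjusted p = 0.230). Without mutant sample 1 the log2 fold change was 0.17, and without mutant sample 2 it was 0.54.

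Mutant sample 1, the highest for St3gal5 and St3gal2, also had the most RNA of meningeal fibroblasts. Control samples 1 to 4 summed to 784, 419, 541 and 626 FPKM over 5 fibroblast markers, and mutant samples 1 to 3 to 1368, 691 and 707 FPKM, with all 5 genes higher in the mutants, none past the threshold and none at 0 in any sample. For Schwann cell markers the sum of 4 genes was 8.31 FPKM in mutant sample 1 and 5.93 FPKM in control sample 2, against 1.69 to 2.37 FPKM elsewhere, and 1 of these genes was at 0 in a sample. Astrocyte markers were 2559 to 2999 FPKM in control and 3297 to 4072 FPKM in mutant samples, with 6 of 6 higher and 3 past the threshold. Microglia markers summed to 164 to 199.7 FPKM and 203 to 222 FPKM (6 of 6 higher), endothelial and mural markers to 118 to 157 FPKM and 153 to 176 FPKM (5 of 5 higher), and neuron markers to 49.0 to 62.5 FPKM and 61.6 to 88.9 FPKM (7 of 7 higher), with no gene of these 3 lists past the threshold or at 0 in any sample. Of all genes tested, 60.1% were higher in the mutants. The part of these cell types in the values of St3gal5 and St3gal2 was not tested.

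**Figure D3:**
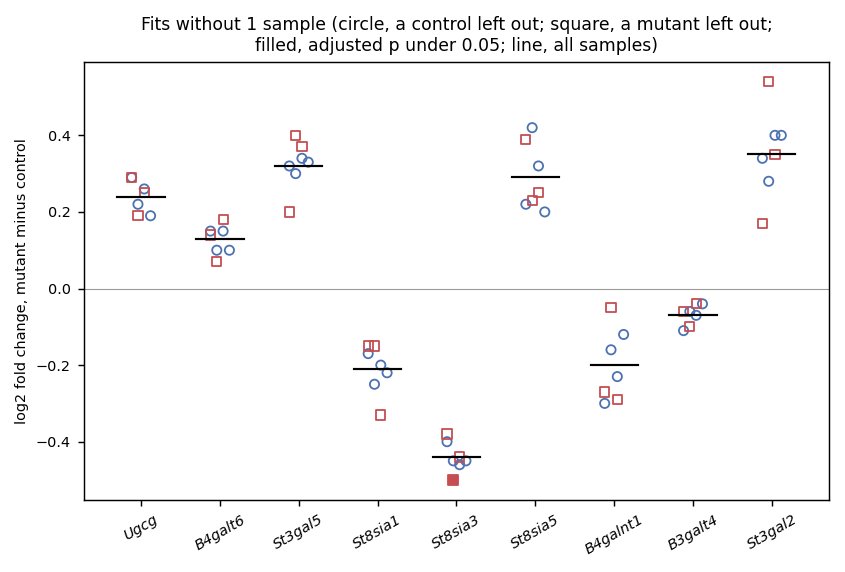
Log2 fold change, mutant minus control, of each gene with all 7 samples (line) and in 7 fits that each left out 1 control (blue circle) or 1 mutant (red square), with filled symbols for an adjusted p under 0.05. St8sia3 stays between -0.50 and -0.38 and has 1 filled symbol, and St3gal2 ranges from 0.17 to 0.54.

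Together the 9 genes had a similar summed level in both genotypes, in a summary chosen after the values had been seen. It was 74.5 to 80.1 FPKM in control and 74.1 to 81.1 FPKM in mutant samples, with overlapping groups. St8sia3 made up 39.9% to 44.7% of this sum in control and 27.2% to 35.3% in mutant samples. The other 8 genes summed to 42.4 to 47.2 FPKM in control and 47.9 to 59.1 FPKM in mutant samples. Of the 9 genes, 5 were higher and 4 lower, where 60.1% of all genes tested were higher, with a median log2 fold change of 0.13.

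At both branch points the RNA levels of the 2 enzymes were compared per sample, as a ratio of FPKM + 0.5. Each ratio is over all cells of the nerve, so it does not show whether the enzymes share cells or substrate. The added 0.5 is not small beside St8sia1, at 0.996 to 1.55 FPKM, and moves its ratio toward 0. The log2 ratio of St8sia1 to B4galnt1, which both act on GM3, was -0.71, -1.38, -1.02 and -1.38 in control and -1.38, -0.94 and -1.07 in mutant samples. The groups overlapped fully, with means of -1.12 ± 0.321 (SD, n = 4) and -1.13 ± 0.227 (SD, n = 3), and the difference was -0.01 (two-sided exact permutation test, p = 0.943, adjusted p = 0.943 over both ratios). For ceramide, the log2 ratio of Ugcg to Ugt8a was -6.85, -7.00, -6.83 and -6.93 in control and -6.86, -7.08 and -6.92 in mutant samples. These groups overlapped as well (means -6.90 ± 0.0786, SD, n = 4, and -6.95 ± 0.116, SD, n = 3; difference -0.05, exact permutation test, two-sided p = 0.514, adjusted p = 0.943). With 4 mice against 3 this test can give no p below 0.0571. In both genotypes Ugt8a, at 774 to 1222 FPKM, was far above Ugcg.

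Genes on and around the ganglioside pathway were described with 7 lists of 58 genes, of which 51 were tested. The lists also cover globo and lacto series enzymes, other uses of ceramide and other sialyltransferases. Of the genes tested, 4 passed the threshold, 2 higher and 2 lower, a share of 7.84% against 2.62% of all genes tested. Among these 4, only Neu4 comes from a list of ganglioside enzymes, that of breakdown. The share therefore does not describe the ganglioside pathway itself. Neu4, a sialidase that removes sialic acid from gangliosides, was lower in the mutants, at a mean of 14.9 ± 1.51 FPKM (SD, n = 3) against 25.2 ± 4.13 FPKM (SD, n = 4), with 21.5, 31.1, 24.6 and 23.7 FPKM in control and 13.4, 16.4 and 14.9 FPKM in mutant samples. The groups did not overlap (log2 fold change -0.73, SE 0.124, limma-trend adjusted p = 0.0276), and Neu4 is also one of the OPC markers above. Of the 7 fits that left out 1 sample it passed only in that without mutant sample 2 (adjusted p 0.0298 to 0.0972 in limma-trend).

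The remaining breakdown genes did not pass. Among 10 tested, 7 were higher and 3 lower, where 60.1% of all genes tested were higher, with a median log2 fold change of 0.13. Gm2a, the activator protein that presents GM2 for cleavage, had 23.5 ± 0.408 FPKM (SD, n = 4) and 28.9 ± 2.80 FPKM (SD, n = 3) without overlap (limma-trend adjusted p = 0.0707). Neu3, the plasma membrane sialidase, was at 1.02 ± 0.108 and 1.40 ± 0.272 FPKM (SD, n = 4 and 3, limma-trend adjusted p = 0.204).

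Gal3st1, which sulfates galactosylceramide to the myelin lipid sulfatide, had 74.5, 87.1, 89.9 and 86.5 FPKM in control and 55.6, 57.5 and 54.0 FPKM in mutant samples. The groups lay far apart (log2 fold change -0.59, SE 0.0737, limma-trend adjusted p = 0.0148), and the call was lost without control sample 2, control sample 3 or mutant sample 3 (adjusted p 0.0206 to 0.0730 over the 7 fits in limma-trend). It was the one gene called among the 6 genes listed for other uses of ceramide. Ugt8a in the same list had a log2 fold change of 0.29 (SE 0.110, limma-trend adjusted p = 0.152).

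Higher in the mutants were St3gal4 and B3galnt1. St3gal4, a sialyltransferase mainly of glycoproteins, had 29.0, 25.8, 24.3 and 25.0 FPKM in control and 36.4, 38.2 and 35.8 FPKM in mutant samples, without overlap. Its log2 fold change was 0.49 (SE 0.0730, limma-trend adjusted p = 0.0214), and its call was lost without the same samples (adjusted p 0.0280 to 0.0916 over the 7 fits in limma-trend). B3galnt1, which makes the globo-series lipid globoside, was at 11.9 ± 0.674 FPKM (SD, n = 3) in the mutants and 9.05 ± 0.371 FPKM (SD, n = 4) in the controls, a log2 fold change of 0.37 (SE 0.0741, limma-trend adjusted p = 0.0415). With the replicate block it missed the threshold (adjusted p = 0.0523, limma-trend) and of the 7 fits that left out 1 sample it passed only in that without mutant sample 2 (adjusted p 0.0470 to 0.120 in limma-trend).

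In the list of 7 other glycosyltransferases of gangliosides none passed with limma-trend, although 4 had an unadjusted p under 0.05, a level reached by 24.4% of all genes tested. Of these 7 genes, 6 were higher and 1 lower, where 60.1% of all genes tested were higher, with a median log2 fold change of 0.32. St6galnac5, which makes alpha-series gangliosides of GD1alpha type, had the smallest p. It had 0.525, 0.445, 0.589 and 0.637 FPKM in control and 0.953, 0.915 and 1.42 FPKM in mutant samples, without overlap (log2 fold change 0.59, SE 0.152, limma-trend adjusted p = 0.0724). The control level was near the pseudocount, so the fold change depended on it, at 0.86 with a pseudocount of 0.1 and 0.43 with 1, and the mutant mean was 199% of the control mean. With the other deposited values, the normalized counts, the fold change was 0.84 and passed (adjusted p = 0.0444, limma-trend). The gene overlaps Pigk on the other strand.

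The supply of substrates showed no call with limma-trend. Among 8 tested genes of sialic acid and sugar nucleotide supply, 2 had an unadjusted p under 0.05 and the median log2 fold change was 0.07. Slc35a1, the CMP-sialic acid transporter of the Golgi, had the smallest p, with 12.7 ± 0.662 FPKM (SD, n = 4) and 15.1 ± 0.990 FPKM (SD, n = 3) and no overlap (limma-trend adjusted p = 0.104). Among 10 tested genes of ceramide synthesis, 2 had an unadjusted p under 0.05 and the median was 0.09. Cers6, a ceramide synthase that uses palmitoyl-CoA, had 7.18 ± 0.313 FPKM (SD, n = 4) and 9.20 ± 0.554 FPKM (SD, n = 3) without overlap (log2 fold change 0.34, SE 0.0784, limma-trend adjusted p = 0.0603).

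**Figure D4:**
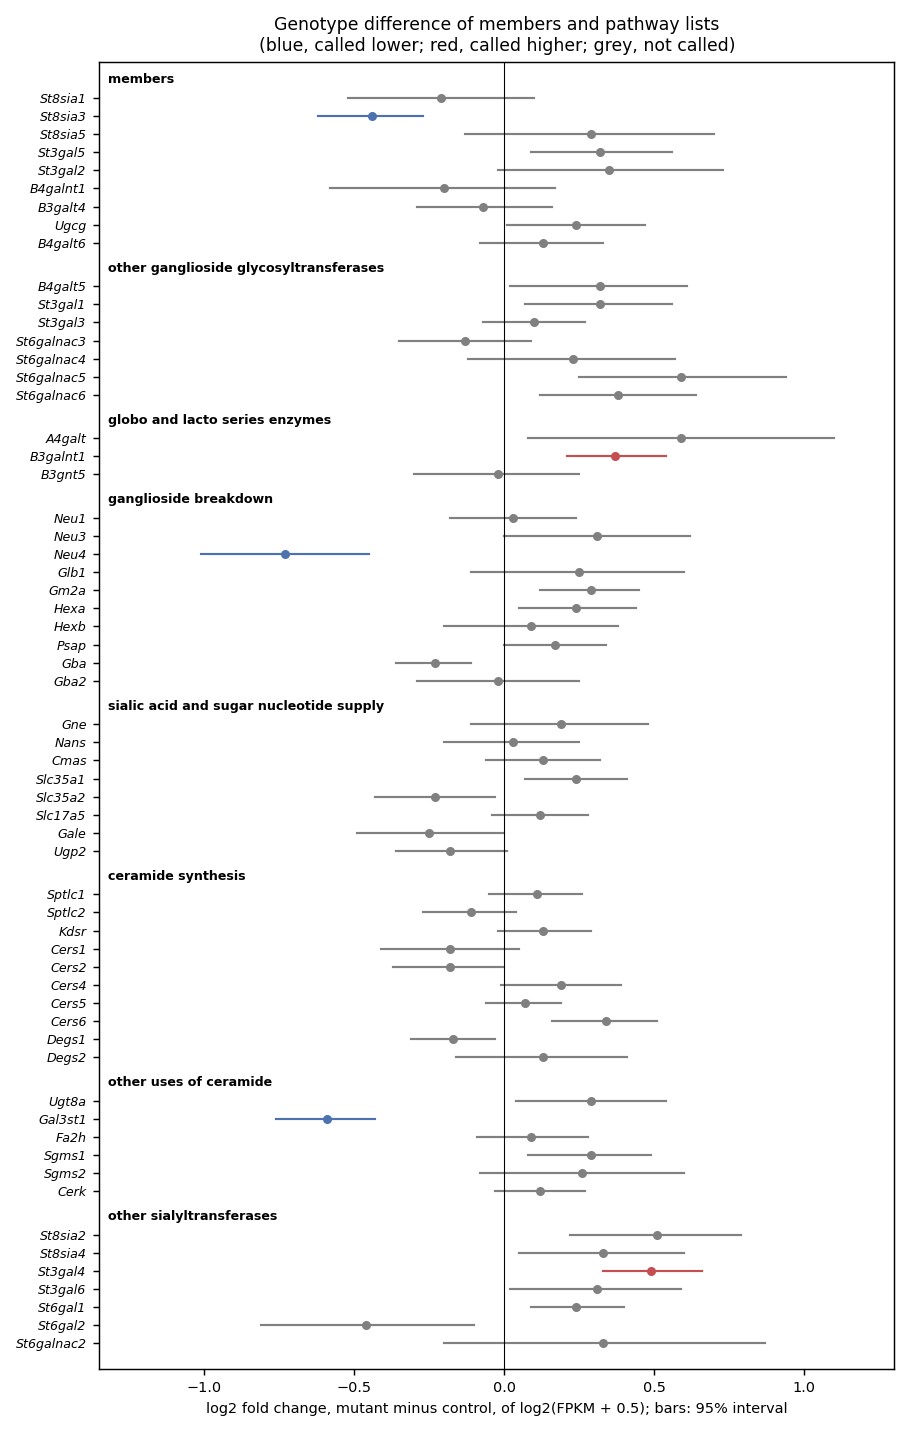
Log2 fold change, mutant minus control, with its 95% interval (horizontal axis) for the 9 genes and the tested genes of the 7 further lists (rows). Blue marks the genes called lower (St8sia3, Neu4, Gal3st1), red those called higher (B3galnt1, St3gal4) and grey the rest.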

How the data were processed

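RNA of P14 optic nerves of 4 control and 3 mutant mice was sequenced with a stranded poly-A kit. The authors cleaned the reads, aligned them with STAR 2.5.1b to GRCm38 and estimated gene levels with RSEM 1.2.22. They deposited 1 table with FPKM values and normalized counts, a signal per gene divided by a size factor whose method is not given in the sources used here. The table also holds the log2 ratios, p-values and false discovery rates of the authors' comparison, which were not used. Whether the counting used the strand is not given in the sources used here.

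FPKM values were tested on log2(FPKM + 0.5) with limma 3.58.1 in R 4.3.3 (trend), for genes with at least 0.5 FPKM in at least 3 samples, with genotype as the only term, and the fit was tested on simulated data. The authors fitted a generalized linear model to counts. Of values of 0.5 to 10 reads, 78.8% to 83.6% were within 0.1 of a whole number and the rest were not, so no count model was fitted. Sample totals were estimated from the most frequent low value. Deviations from the group means had correlations across genes of 0.168 to 0.409 over 3 pairs of the same number, against -0.353 to 0.205 for other pairs. The ranges overlap, since mutant sample 1 correlated more with control sample 4 (0.205) than with control sample 1 (0.168). Whether the numbers mark pairs is thus not settled, and the number was used as a block only in an alternative fit. Alternatives were other pseudocounts, filters and scalings, robust fitting and leaving out each sample.

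The 9 genes and the lists were chosen with earlier results of these data known. Named genes are the 9 genes, Fasn, list genes past the threshold or, in a list without one, that with the smallest p, and the 3 genes most like St8sia3. St8sia2, St8sia4, Gm2a, Neu3, Ugt8a and the OPC markers named singly were added after their values had been seen. Marker lists were described by counts and sums. Each sample is 1 mouse.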

Additional observations from a re-analysis of the deposited data

Results flagged for a closer look

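The St8sia3 value of control sample 1, 35.9 FPKM, was set apart from the other 3 control samples, with a gap to the nearest of them of 0.846 of the control range, above Dixon's 95% critical value for 4 samples. Without this sample the log2 fold change of St8sia3 was -0.40 and its adjusted p was 0.0647 (limma-trend). This was 1 of 19 sets of control values examined, where chance sets apart about 1 in 20.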

How the results depend on the processing

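The direction of each of the 9 genes was the same in every alternative. St8sia3 had log2 fold changes of -0.53 to -0.43 and passed the threshold in 8 of 9 alternatives that kept all samples (adjusted p 0.0291 to 0.0626, limma-trend). It missed it without the filter on low values, when 19291 genes were tested and 0 of the 9 genes and 2 of the genes of the other lists passed. Leaving out 1 sample gave 0 to 1 of the 9 genes and 0 to 7 genes of the other lists, and called 6 genes (without control sample 3 or mutant sample 3) to 909 genes (without mutant sample 2) in all. The genes of the other lists that passed numbered 0 without control sample 2, control sample 3 or mutant sample 3, 7 without mutant sample 2 and 2 in the other fits. With the replicate block 1 of the 9 genes and 6 genes of the other lists passed, and the calls over all genes rose from 363 to 1159. Among the named genes the block ended the call of B3galnt1 and no other, and the normalized counts and both other scalings ended it too (adjusted p 0.0648 to 0.0664, limma-trend). Without the filter Neu4 and B3galnt1 missed the threshold too (adjusted p = 0.0738 and 0.0626, limma-trend). Normalized counts called 102 genes higher and 266 lower, scaling FPKM to the same median called 117 and 283, and quantile scaling 141 and 281, against 175 and 188 with FPKM as deposited.

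The difference in the log2 ratio of St8sia1 to B4galnt1 was 0.02 with a pseudocount of 1 and ranged from -0.11 to 0.13 with 1 sample left out (0.13 and 0.03 without control sample 1 and 3, and 0.12 without mutant sample 1). With the replicate block it was -0.09. That of Ugcg to Ugt8a ranged from -0.10 to 0.01 with 1 sample left out, the latter without mutant sample 2, and was -0.06 with the block. The signs of both are within the spread of the samples. Depth limits St8sia5 most, with 40 to 101 reads.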
